A study of Homo sapiens with 12 samples.

Results

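Expression of 9 metalloprotease genes was described in 2 human pancreatic cancer cell lines: the membrane-anchored proteases ADAM8, ADAM9, ADAM10, ADAM12, ADAM15, ADAM17, ADAM19 and ADAM28, and the secreted protease ADAMTS1. The genes were taken as a named list, and no threshold on their values entered the rule. Each was read on the probe set with the highest mean log2(signal + 3) over the 12 arrays, among probe sets that map to exactly 1 gene symbol. In all, 26 probe sets mapped to a member, and the 17 not used for the main values served as a check. All 9 genes passed the filter on low signal and were among the 16099 genes tested, of 19775 genes with such a probe set.

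AsPC-1 cells were first isolated from ascites and stand for metastatic disease in the study, and BxPC-3 cells come from a primary tumour. Each line was kept overnight in 2.5% foetal calf serum and was then left untreated or given phorbol-12-myristate 13-acetate (PMA) at 1 µM for 4 h, which made 4 groups of 3 Affymetrix arrays. PMA, a phorbol ester that activates protein kinase C, had been dissolved in DMSO (0.1%) and served as an inducer of invasion, and which vehicle the untreated cells received was not stated in the labels used here. The arrays came from passages 8, 10 and 12 of AsPC-1 (replicates 1, 2 and 3) and from passages 7, 9 and 11 of BxPC-3, and each passage gave 1 untreated and 1 PMA-treated array. Each kind of tumour was thus represented by 1 line, and the p-values measure the spread between passages of these lines only.

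ADAM proteases cut the extracellular part of membrane proteins close to the cell surface, a step called ectodomain shedding, which releases growth factors, cytokines, adhesion molecules and receptors. ADAM17 releases tumour necrosis factor and several ligands of the epidermal growth factor (EGF) receptor and is activated within minutes in cells given phorbol esters, by a route that needs no new transcript. ADAM10 cuts Notch receptors and cadherins, and tissue inhibitors of metalloproteinases (TIMPs) block members of the family to differing degrees. The arrays measure transcripts and carry no information on protease activity.

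The arrays shared a scale, with trimmed mean signals of 100.01 to 100.02. Replicate 1 of PMA-treated AsPC-1 stood apart: over all genes tested its mean correlation with the other 2 arrays of its group was 0.921, against 0.945 to 0.978 for the other arrays, and its correlation with the untreated array of the same passage was 0.964. That untreated array in turn correlated at 0.95 with its own group, less than with its treated partner. In passages 10 and 12 of AsPC-1 both arrays were closer to their own group. Whether passage 8 as a whole or the treated array alone differed was not tested. For ADAM17 and some other genes, values that rest on replicate 1 of PMA-treated AsPC-1 are also given without it, with its untreated partner kept. The ratio of the 3′ to the 5′ probe set of ACTB, a sign of RNA integrity, was 2.56, 2.95 and 4.14 in untreated BxPC-3 and 1.84, 1.99 and 2.02 in PMA-treated BxPC-3, and its part in the PMA comparison of that line was not tested. All 7 markers of pancreatic duct epithelium lay above the 40th percentile of signal on every array. Of 3 leukocyte markers, 2 lay above that percentile on all 3 arrays of both AsPC-1 groups and of treated BxPC-3, and 1 in untreated BxPC-3. Their summed signal was 50.2 to 90.4 in AsPC-1 and 24.8 to 40.3 in BxPC-3, with CD14 at 9.60 to 64.1, CD3E at 8.96 to 25.3 and PTPRC at 1.12 to 9.86, and its part in the results was not tested. The summed signal of 6 fibroblast markers was 1350 to 3430 in AsPC-1, most of it LUM at 1261 to 3396, and 145 to 232 in BxPC-3. LUM read 22.8 to 70.8 in BxPC-3. COL1A1 read 37.8 to 91.8 there and 2.17 to 39.6 in AsPC-1, and COL3A1 39.2 to 57.7 and 0.859 to 11.2. Above the 40th percentile on all 3 arrays lay 3 of the 6 in untreated AsPC-1, 1 in treated AsPC-1 and 4 in each BxPC-3 group. The part of these markers in the differences between the lines was not tested.

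In the fit of all 12 arrays without a passage block, PMA changed none of the 9 genes past the test in either line. In BxPC-3, 0 of 9 members passed (limma, Benjamini-Hochberg adjusted p under 0.05 over all 16099 genes), with 1 member, ADAM8, at an unadjusted p under 0.05, against 5.82% of all genes called, 2.52% higher and 3.3% lower. In AsPC-1, 0 of 9 passed, with ADAM17 alone at an unadjusted p under 0.05, against 1.96% of all genes called, 1.24% higher and 0.721% lower. The median log2 change of the members was 0.21 in BxPC-3 and 0.01 in AsPC-1, beside medians of 0 and -0.10 over all genes tested. Treated and untreated arrays failed to overlap for 1 member in BxPC-3 (ADAM17) and 1 in AsPC-1 (ADAM8), where 38.9% and 14.4% of all genes did so. In RNA from whole cultures, fewer cells that express a gene and less RNA per cell cannot be told apart.

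**Figure D1:**
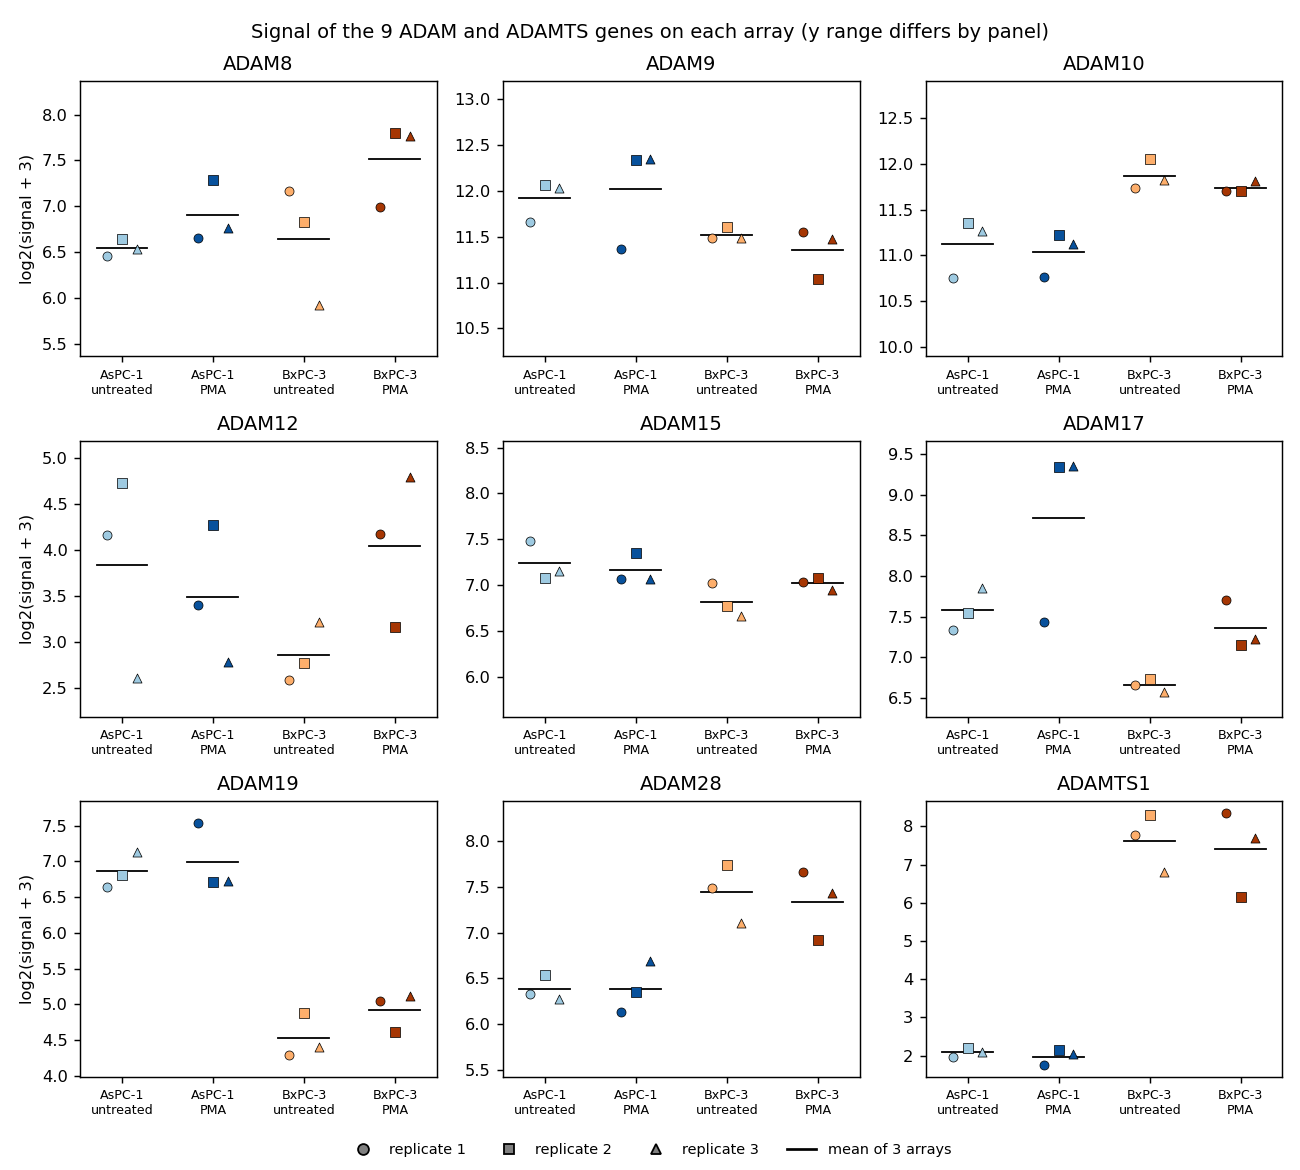
Signal of each of the 9 genes as log2(signal + 3), 1 panel per gene and 1 point per array, with circles, squares and triangles for replicates 1, 2 and 3 and a line at the mean of the 3 arrays; the y range differs by panel. ADAMTS1, ADAM19, ADAM10 and ADAM28 separate the lines with and without PMA, and for ADAM17 replicates 2 and 3 of PMA-treated AsPC-1 lie above all other arrays.

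ADAM17, the sheddase of tumour necrosis factor and of most EGF-receptor ligands, had the highest values in PMA-treated AsPC-1. Its signals were 158, 185 and 228 in untreated AsPC-1 and 169, 645 and 655 after PMA. In BxPC-3 they were 98.2, 103 and 92.0 untreated and 207, 139 and 146 after PMA. All 3 treated BxPC-3 arrays lay above all 3 untreated ones, while in AsPC-1 replicates 2 and 3 lay far above the untreated arrays and replicate 1 lay among them. On the log2 scale the change was 0.71 ± 0.41 (SE, n = 3 per group) in BxPC-3, 1.63-fold, with limma's adjusted p at 0.356. In AsPC-1 it was 1.13 ± 0.41, 2.19-fold, with limma's adjusted p at 0.177. Within passages the treated array exceeded the untreated one in 6 of 6 pairs, by 0.09, 1.78 and 1.51 in AsPC-1 and by 1.05, 0.42 and 0.65 in BxPC-3.

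The ADAM17 result depended on replicate 1 of PMA-treated AsPC-1 and on the passage. Without that array the ADAM17 change was 1.77 ± 0.20 in AsPC-1 (limma, adjusted p = 4.64e-05) and 0.71 ± 0.18 in BxPC-3 (limma, adjusted p = 0.0185), and the difference between the lines' responses was -1.06 ± 0.27 (limma, adjusted p = 0.0442). The array left out held the lowest treated AsPC-1 signal, 169, so the AsPC-1 change had to grow. In BxPC-3 the arrays and the change of 0.71 stayed the same, while the SE, which rests on the spread in all groups, fell from 0.41 to 0.18. Leaving it out also raised the share of all genes called to 19.5% in AsPC-1, 14.9% in BxPC-3 and 4.43% for the difference, so the ADAM17 calls came among many. With the passage as a block over all 12 arrays, ADAM17 rose in AsPC-1 by 1.13 ± 0.29 (limma, adjusted p = 0.0491), where 5.62% of all genes were called. In a fit of the 6 BxPC-3 arrays alone its adjusted p (limma) was 0.0140, where 22% of all genes were called. Over all 12 arrays the difference between the lines' responses was -0.42 ± 0.57 (limma, adjusted p = 0.906), which misses the threshold and leaves a 95% interval of -1.66 to 0.82.

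The other ADAM17 probe sets gave the same direction in both lines. The second (x-marked) probe set read 149, 164 and 184 in untreated AsPC-1 and 184, 641 and 509 after PMA. In BxPC-3 it read 113, 85.0 and 79.8 untreated and 158, 168 and 145 after PMA. It thus showed the same low replicate 1 in treated AsPC-1, with its signal of 184 at the top of the untreated values, and the same separation in BxPC-3. Its log2 changes were 0.75 ± 0.35 and 1.23 ± 0.35, with limma's adjusted p at 0.255 in BxPC-3 and 0.114 in AsPC-1. The third, dim (s-marked) probe set changed by 1.78 ± 0.54 in BxPC-3 and 1.34 ± 0.54 in AsPC-1, with limma's adjusted p at 0.0780 and 0.256. None of the 3 passed in the fit of the 12 arrays without the passage block.

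**Figure D2:**
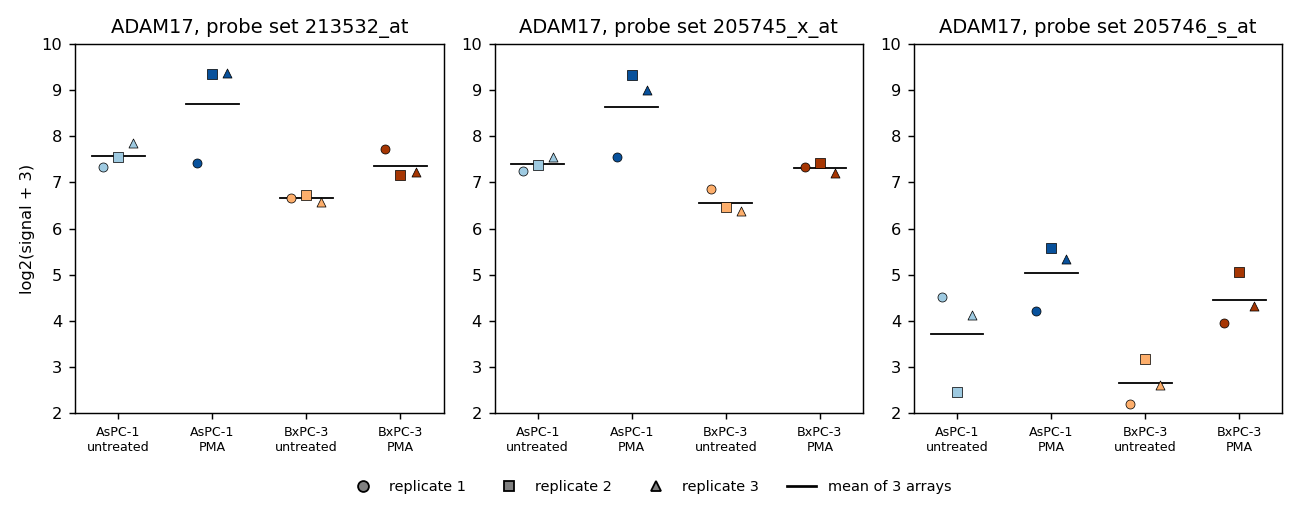
The 3 probe sets of ADAM17 as log2(signal + 3), 1 point per array with circles, squares and triangles for replicates 1, 2 and 3 and a line at each mean. In the left and middle panels, the main and the x-marked probe set, the treated BxPC-3 arrays lie above the untreated ones, and replicate 1 of treated AsPC-1 lies near the untreated AsPC-1 arrays while replicates 2 and 3 read between 509 and 655 in signal.

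The genes most like ADAM17 over the 12 arrays, by Pearson correlation of log2(signal + 3) among all genes tested, were SSUH2 (r = 0.979), SDCBP (r = 0.975) and RAPGEF6 (r = 0.972). They were named for ADAM17 after its values had been seen, and the 12 points share the 4 groups and the array that stood apart. SDCBP, an adaptor that binds the cytoplasmic tails of syndecans, read 3834, 4574 and 4714 in untreated AsPC-1 and 4477, 6917 and 7069 after PMA. SSUH2 read 9.66, 28.9 and 25.95 in untreated AsPC-1 and 8.27, 237 and 278 after PMA. In both genes replicate 1 of treated AsPC-1 lay among or below the untreated arrays, as for ADAM17.

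ADAM8, a protease of leukocytes and tumour cells that can activate itself, had its highest group mean in treated BxPC-3. Its signals there were 141, 111 and 58.1 untreated and 124, 219 and 215 after PMA. In AsPC-1 they were 85.2, 96.6 and 89.5 untreated and 98.4, 154 and 105 after PMA. The BxPC-3 groups overlapped through replicate 1, which was lower after PMA, whereas the nearest AsPC-1 arrays, 96.6 untreated and 98.4 treated, lay close together without overlapping. The log2 change was 0.87 ± 0.32 in BxPC-3 (limma, unadjusted p = 0.0173, adjusted p = 0.134) and 0.36 ± 0.32 in AsPC-1 (limma, adjusted p = 0.632). The second probe set of ADAM8 changed by 0.64 ± 0.40 and 0.69 ± 0.40, with limma's adjusted p at 0.414 and 0.452.

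ADAM12, which cuts insulin-like growth factor binding proteins and heparin-binding EGF-like growth factor, was dim. Its probe set lay above the 40th percentile of signal on 5 of 12 arrays. The signals were 14.9, 23.6 and 3.11 in untreated AsPC-1, 7.55, 16.3 and 3.85 in treated AsPC-1, 2.98, 3.83 and 6.28 in untreated BxPC-3, and 15.0, 5.92 and 24.6 in treated BxPC-3. All groups overlapped, and its change of 1.18 ± 0.58 in BxPC-3 had an adjusted p of 0.273 (limma). Of its other 4 probe sets, 3 failed the filter on low signal and the fourth was not called in any comparison.

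The 95% intervals of the PMA change were narrowest for ADAM10, the Notch sheddase, at -0.49 to 0.23 in BxPC-3 and -0.45 to 0.27 in AsPC-1. For ADAM15, which carries an integrin-binding motif in its disintegrin domain, they were -0.22 to 0.63 and -0.50 to 0.35. ADAM15 read 175, 132 and 140 in untreated AsPC-1, 131, 160.1 and 132 in treated AsPC-1, 127, 106 and 98.3 in untreated BxPC-3, and 128, 133 and 120.4 in treated BxPC-3. It was not called in any of the 5 comparisons. A log2 change of 1 in either direction lay outside the PMA intervals of ADAM9, ADAM10, ADAM15 and ADAM28 in both lines. A rise of 1 lay inside those of ADAM8 and ADAM17 in both lines, and a fall of that size inside those of ADAMTS1 in both.

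**Figure D3:**
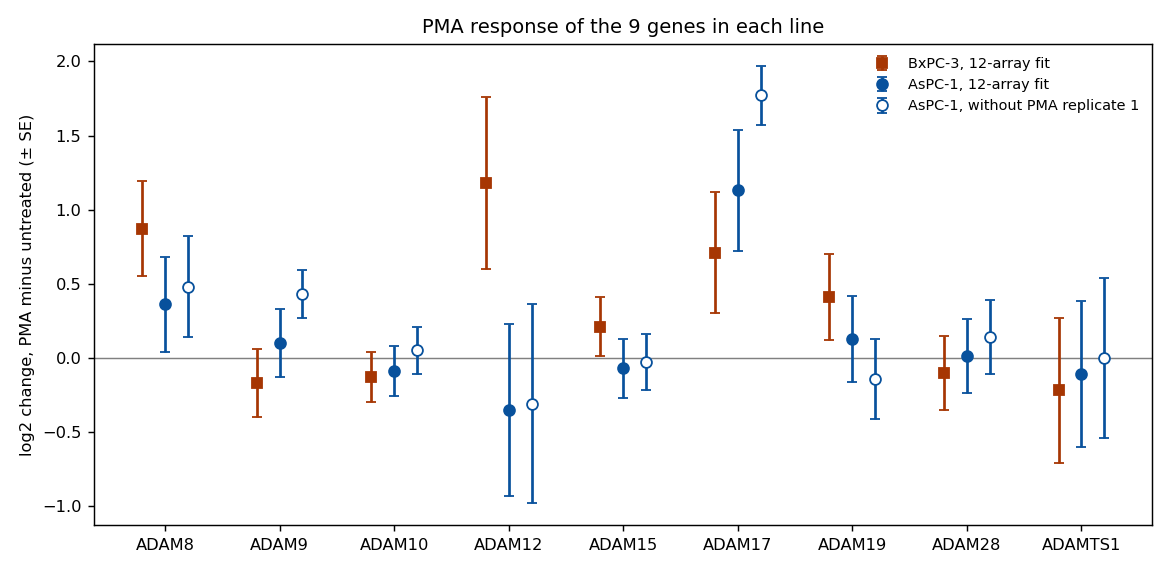
Log2 change after PMA for each of the 9 genes (points, ± SE) in BxPC-3 and AsPC-1 from the fit of 12 arrays, and in AsPC-1 without replicate 1 of the treated cells (open circles). ADAM17 moves from 1.13 to 1.77 in AsPC-1 when that array is left out and ADAM9 from 0.10 to 0.43.

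Between the lines several members differed. Untreated, ADAMTS1, ADAM28 and ADAM10 were higher in BxPC-3 and ADAM19 was lower, so that 4 of 9 members passed (limma, adjusted p under 0.05), 3 higher and 1 lower, against 32.4% of all genes called, 16.8% higher and 15.6% lower. After PMA 6 of 9 passed, 3 higher and 3 lower, the added members being ADAM17 and ADAM9, against 33.5% of all genes called, 18.3% higher and 15.2% lower. The lines' arrays did not overlap for 7 members untreated and 4 after PMA, where 50.6% and 43.4% of all genes did not. The members' median log2 difference, BxPC-3 minus AsPC-1, was -0.40 untreated and 0.56 after PMA, beside -0.08 and 0.03 over all genes tested. The tests of the difference between the lines' PMA responses called 0 of 9 members, and 0 at an unadjusted p under 0.05 (limma), against 0.491% of all genes called, 0.317% higher and 0.174% lower.

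**Figure D4:**
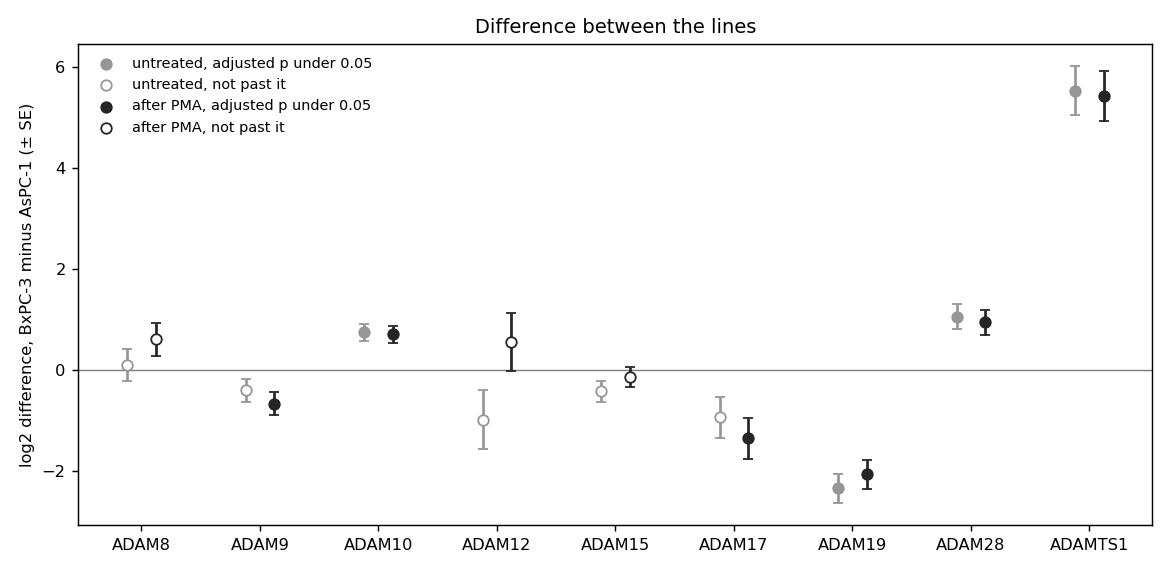
Log2 difference, BxPC-3 minus AsPC-1, for each gene (points, ± SE) in untreated cells (grey) and after PMA (black). Filled points passed an adjusted p of 0.05: ADAM10, ADAM28 and ADAMTS1 above 0 and ADAM19 below 0 with and without PMA, and ADAM9 and ADAM17 below 0 after PMA only among these tests.

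ADAMTS1, a secreted protease that cuts the proteoglycans versican and aggrecan and whose other known activity is the inhibition of blood vessel growth, showed the widest gap. Its signals were 215, 313 and 109 in untreated BxPC-3 and 326, 68.6 and 206 after PMA. In AsPC-1 they were 0.920, 1.59 and 1.26 untreated and 0.365, 1.44 and 1.08 after PMA, below the 40th percentile of their arrays on all 6. Every BxPC-3 array lay above every AsPC-1 array. The log2 difference was 5.54 ± 0.49 untreated (limma, adjusted p = 1.29e-06) and 5.43 ± 0.49 after PMA (limma, adjusted p = 1.70e-06). Because the AsPC-1 signals are so low, its size depends on the pseudocount, from 3.62 with 16 to 6.45 with 1 in untreated cells, and it stayed past the threshold in all 24 alternatives. The second probe set differed by 3.60 and 2.83 (limma, adjusted p = 0.00159 and 0.00757).

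ADAM19, which sheds neuregulin and is also called meltrin beta, was the member most reduced in BxPC-3. It read 96.7, 109 and 137 in untreated AsPC-1 and 183, 102 and 103 after PMA. In BxPC-3 it read 16.5, 26.3 and 18.2 untreated and 30.1, 21.5 and 31.9 after PMA. The lines did not overlap, and the differences were -2.34 ± 0.29 untreated (limma, adjusted p = 2.93e-05) and -2.06 ± 0.29 after PMA (limma, adjusted p = 8.83e-05), 5.05-fold and 4.18-fold. Its second, dimmer probe set differed by -0.76 ± 0.43 and 0.07 ± 0.43, with limma's adjusted p at 0.220 and 0.927, so the difference was seen on 1 of its 2 probe sets.

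ADAM10 was bright in both lines and higher in BxPC-3. It read 1721, 2607 and 2462 in untreated AsPC-1 and 1731, 2380 and 2221 after PMA, against 3417, 4230 and 3622 in untreated BxPC-3 and 3335, 3319 and 3593 after PMA. No AsPC-1 array reached the lowest BxPC-3 array. The differences were 0.75 ± 0.17 untreated (limma, adjusted p = 0.00335) and 0.71 ± 0.17 after PMA (limma, adjusted p = 0.00464), and the latter had an adjusted p of 0.100 when arrays were centred on their medians. All 3 probe sets of ADAM10 were called in the same direction, with the others at 0.75 and 0.93 untreated and 0.88 and 1.13 after PMA.

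ADAM28, a protease first described in lymphocytes that cuts insulin-like growth factor binding protein 3 and von Willebrand factor, read 77.3, 89.9 and 74.7 in untreated AsPC-1 and 67.3, 78.5 and 100.4 after PMA. In BxPC-3 it read 177, 209 and 134 untreated and 199.7, 118 and 169.9 after PMA. The lines did not overlap. The differences were 1.06 ± 0.25 (limma, adjusted p = 0.00532) and 0.95 ± 0.25 (limma, adjusted p = 0.00999), and with the mean of all its probe sets they were 0.36 and 0.29, with adjusted p at 0.308 and 0.425. Its other 2 tested probe sets were not called in any comparison, so the difference was seen on 1 of 3.

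ADAM9, a sheddase of broad specificity, read 3229, 4273 and 4191 in untreated AsPC-1 and 2627, 5168 and 5229 after PMA. In BxPC-3 it read 2858, 3105 and 2862 untreated and 2992, 2107 and 2836 after PMA. Replicate 1 of treated AsPC-1 fell among the BxPC-3 arrays and the other AsPC-1 arrays lay above them all. The difference was -0.40 ± 0.23 untreated (limma, adjusted p = 0.214) and -0.66 ± 0.23 after PMA (limma, adjusted p = 0.0398), and the latter passed in 10 of 24 alternatives. Without replicate 1 of treated AsPC-1 these values became -0.40 ± 0.14 (limma, adjusted p = 0.0395) and -0.99 ± 0.16 (limma, adjusted p = 2e-04). A second probe set differed by -1.15 ± 0.26 and -0.91 ± 0.26, with limma's adjusted p at 0.00391 and 0.0149. The third, dimmer probe set differed by -0.21 ± 0.43 and -0.12 ± 0.43, with limma's adjusted p at 0.761 and 0.873.

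The level of ADAM17 fell in the order treated AsPC-1, untreated AsPC-1, treated BxPC-3 and untreated BxPC-3, at mean log2 signals of 8.71 ± 1.11, 7.58 ± 0.26, 7.36 ± 0.31 and 6.65 ± 0.08 (SD, n = 3). Untreated AsPC-1 and treated BxPC-3 overlapped, and so did treated and untreated AsPC-1. Between the lines the difference was -0.93 ± 0.41 untreated (limma, adjusted p = 0.0997) and -1.35 ± 0.41 after PMA (limma, adjusted p = 0.0202). The call after PMA was lost without replicate 2 or 3 of treated AsPC-1 or of treated BxPC-3, at adjusted p of 0.0661 to 0.0923, and in the fit of the treated arrays alone (limma, adjusted p = 0.0794). Without replicate 1 of treated AsPC-1 the untreated difference stayed at -0.93, with an SE of 0.18, and passed (limma, adjusted p = 0.00103). The difference after PMA was then -1.99 ± 0.20 (limma, adjusted p = 4e-06). In each of these comparisons 40.6% of all genes were called without that array.

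Promoters are shown for ADAM17, whose signal was higher after PMA in each of the 6 passages, and for ADAM10 and ADAM19, which separated the lines in opposite directions. Windows from RefSeq's table for build GRCh38.p14, matched by symbol, were read for 6 of the 9 members. ADAM9, ADAM28 and ADAMTS1 were not among them, so the motif counts say nothing about these genes. The 250 bases before the annotated start are given on the gene's strand, 5′ to 3′, with GC boxes (GGGCGG on either strand, a site class bound by Sp-family factors) and AP-1 matches in capitals.
ADAM17, chr2:9555831-9556080, minus strand: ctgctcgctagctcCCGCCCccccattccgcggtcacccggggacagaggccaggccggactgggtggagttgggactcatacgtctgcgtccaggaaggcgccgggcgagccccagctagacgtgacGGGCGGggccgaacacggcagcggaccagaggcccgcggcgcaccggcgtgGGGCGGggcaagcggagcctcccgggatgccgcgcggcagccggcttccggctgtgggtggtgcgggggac
ADAM10, chr15:58749708-58749957, minus strand: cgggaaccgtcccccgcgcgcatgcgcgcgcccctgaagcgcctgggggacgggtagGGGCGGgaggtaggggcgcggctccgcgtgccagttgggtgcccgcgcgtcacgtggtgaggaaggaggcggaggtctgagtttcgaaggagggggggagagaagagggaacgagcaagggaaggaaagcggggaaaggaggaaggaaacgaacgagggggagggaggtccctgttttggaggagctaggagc
ADAM19, chr5:157575776-157576025, minus strand: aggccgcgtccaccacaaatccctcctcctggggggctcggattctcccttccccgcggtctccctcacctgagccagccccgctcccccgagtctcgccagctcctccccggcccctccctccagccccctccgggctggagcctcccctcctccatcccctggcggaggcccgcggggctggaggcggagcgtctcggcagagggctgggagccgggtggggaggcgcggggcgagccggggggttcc
The GC box occurred 3 times in the ADAM17 window, 1 time in that of ADAM10 and 0 times in that of ADAM19, and 42.6% of all 35116 windows of this length held it. ADAM8 and ADAM12 each held 3 and ADAM15 held 6, and the windows of the 6 members were 68.4% to 79.6% G and C. The AP-1 site TGANTCA, the element known from genes that phorbol esters induce, matched in 0 of 6 windows on either strand, against 6.57% of all windows. The cAMP response element TGACGTCA matched in 0 of 6 (1.65% of all windows) and the TATA box TATAAA in 0 of 6 (10.7%). The NF-kB motif matched 1 time in ADAM17, 1 time in ADAM10 and 2 times in ADAM19 (9.96% of all windows), and the EGR1 motif GCGNGGGCG, which can overlap a GC box, matched 1 time in ADAM15 (8.41%). A lack of a match says only that these letters are not in this window.

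Among the EGF-family ligands that ADAMs release, PMA raised HBEGF in both lines and TGFA in BxPC-3. HBEGF, the heparin-binding EGF-like growth factor, read 382, 454 and 290.2 in untreated BxPC-3 and 2945, 2320 and 2738 after PMA. In AsPC-1 it read 217, 185 and 140.2 untreated and 386, 1760 and 2100 after PMA. The groups did not overlap in either line, and replicate 1 was again the lowest treated AsPC-1 array. HBEGF rose by 2.84 ± 0.47 in BxPC-3 (limma, adjusted p = 0.00366) and by 2.64 ± 0.47 in AsPC-1 (limma, adjusted p = 0.0133), the latter 3.41 ± 0.21 without that array. The AsPC-1 call was lost in 5 alternatives: without treated replicate 2 or 3, without untreated replicate 2 or 3, and in the fit of the AsPC-1 arrays alone, at adjusted p (limma) of 0.0541 to 0.256. TGFA, which encodes transforming growth factor alpha, rose by 1.28 ± 0.32 in BxPC-3 (limma, adjusted p = 0.0361), a call lost in 8 alternatives. In AsPC-1 TGFA read 300, 760 and 723 untreated and 864, 1468 and 1452 after PMA, and it was not called in that fit. The difference between the lines' TGFA responses was 0.12 with the passage as a block (limma, adjusted p = 0.904).

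Of the 5 ligand genes tested, 2 passed in BxPC-3 and 1 in AsPC-1, all higher, against 5.82% and 1.96% of all genes, and the list's median log2 change was 1.28 and 1.16 beside 0 and -0.10 over all genes. Without replicate 1 of treated AsPC-1, or with the passage as a block, 3 passed in each line: HBEGF, TGFA and EREG, the gene of epiregulin. Without that array 14.9% of all genes were called in BxPC-3 and 19.5% in AsPC-1. With the block the shares were 10.2% and 5.62%. EREG was chosen after its values were seen, and it read 182, 467 and 405 in untreated AsPC-1, 227, 2673 and 2831 in treated AsPC-1, 853, 567 and 339.6 in untreated BxPC-3, and 1905, 2309 and 2175 in treated BxPC-3. Its log2 change over all arrays was 1.95 ± 0.73 in BxPC-3 and 1.87 ± 0.73 in AsPC-1, with limma's adjusted p at 0.143 and 0.215. Between the untreated lines NRG1 and BTC, genes of neuregulin and betacellulin, were higher in BxPC-3 by 4.06 ± 0.40 and 3.42 ± 0.42 (limma, adjusted p = 3.45e-06 and 2.54e-05).

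**Figure D5:**
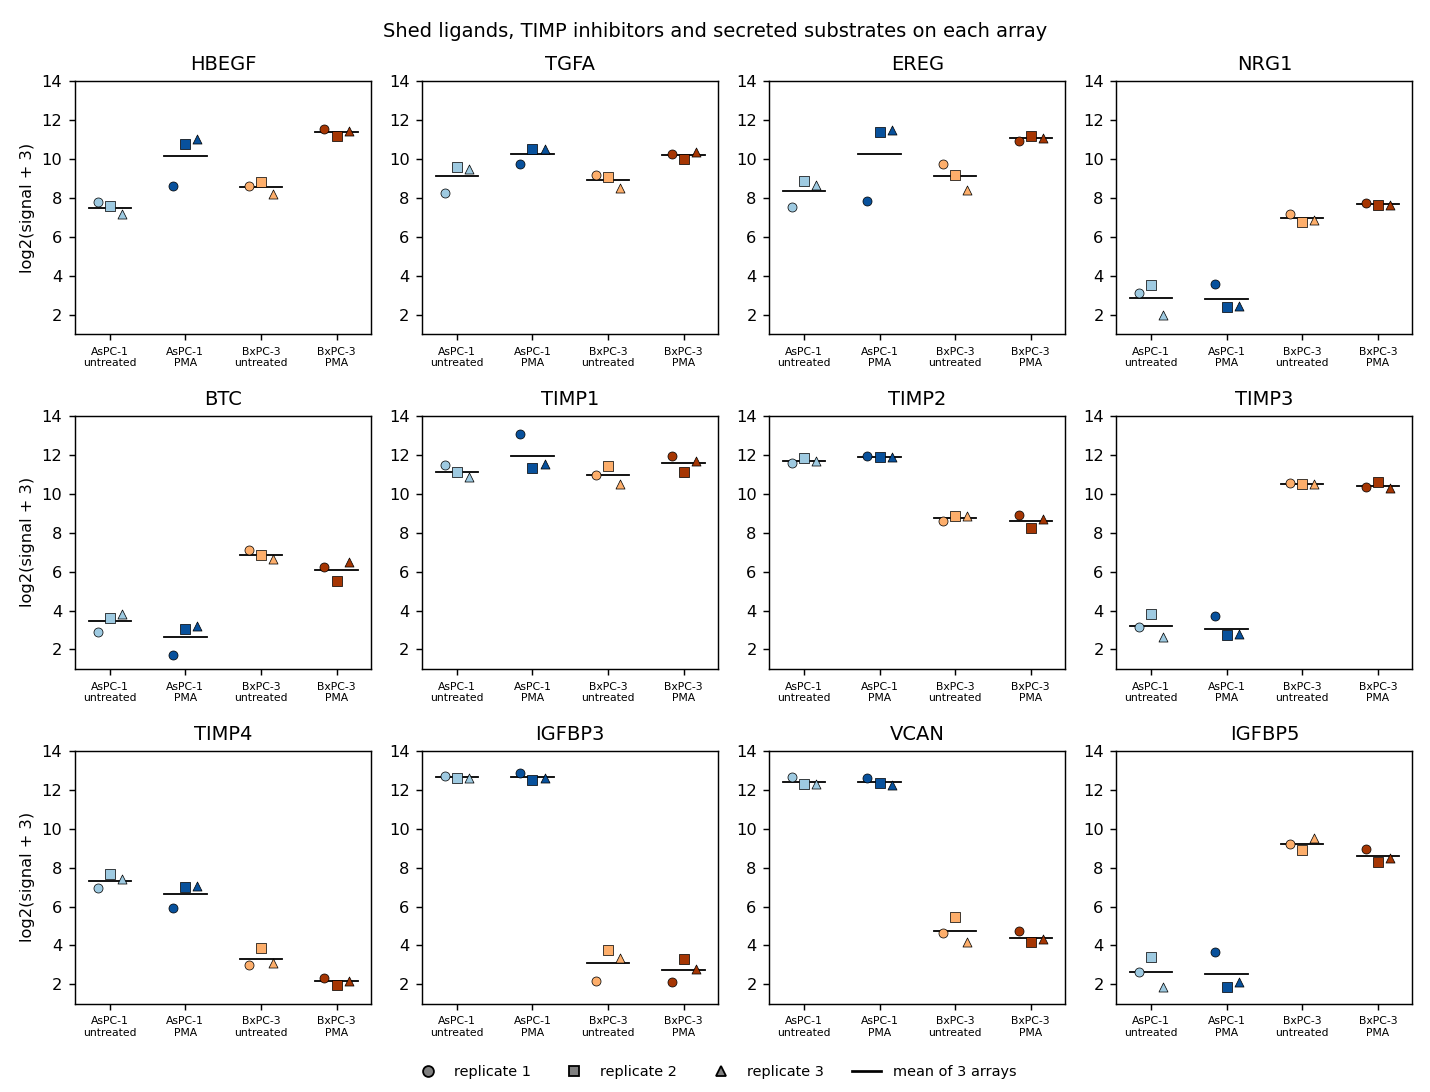
Log2(signal + 3) on each array for 5 shed EGF-family ligands, 4 TIMP inhibitors and 3 secreted substrates, with circles, squares and triangles for replicates 1, 2 and 3 and a line at each mean. HBEGF is higher in every treated array of its line, EREG stays near the untreated level in replicate 1 of treated AsPC-1, and TIMP2, TIMP3, TIMP4, IGFBP3, VCAN and IGFBP5 separate the lines.

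Of the other shed membrane proteins 30 genes were tested. In BxPC-3, 3 of them rose and 1 fell past the threshold, at a list median of 0.22, while AsPC-1 had 1 that rose and a median of 0.42, against 5.82% and 1.96% of all genes called and medians of 0 and -0.10. With the passage as a block 5 rose in AsPC-1, where 5.62% of all genes were called. In BxPC-3 the decoy receptor gene IL1R2 rose by 3.14 ± 0.65 (limma, adjusted p = 0.0125), EPHA2, an ephrin receptor, by 1.79 ± 0.34 (limma, adjusted p = 0.00826) and CXCL16, a membrane-bound chemokine, by 1.6 ± 0.23 (limma, adjusted p = 0.00162). SDC1, the gene of syndecan-1, fell by 0.71 on the log2 scale (SE 0.19, limma, adjusted p = 0.0489), a call lost in 17 alternatives. EPHA2 rose in AsPC-1 by 1.74 ± 0.34 (limma, adjusted p = 0.0227), a call lost in 6 alternatives, among them leaving out replicate 2 or 3 of either AsPC-1 group, at adjusted p (limma) of 0.0658 to 0.312. IL1R2 passed at low signals, 11.5, 8.71 and 1.68 untreated against 129.6, 27.0 and 133 treated, and lost its call without treated replicate 1 or 3 or untreated replicate 3. Without replicate 1 of treated AsPC-1 the counts became 5 higher and 2 lower in BxPC-3 and 8 higher and 1 lower in AsPC-1, where 14.9% and 19.5% of all genes were called.

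CXCL16 and DLL1, a Notch ligand, were the members of the substrate list whose PMA responses differed between the lines. CXCL16 read 79.0, 73.5 and 118 in untreated BxPC-3 and 246, 296 and 281 after PMA, against 311, 208 and 192 in untreated AsPC-1 and 200.3, 218 and 197 after PMA. It was higher in every treated BxPC-3 array and overlapped in AsPC-1, and the difference of responses was 1.77 ± 0.33 (limma, adjusted p = 0.0342), a call lost in 9 alternatives: without an intensity trend, without untreated AsPC-1 replicate 2, treated AsPC-1 replicate 2 or 3, untreated BxPC-3 replicate 1 or 2, or any 1 array of treated BxPC-3. DLL1 read 83.9, 110 and 85.4 in untreated BxPC-3 and 51.7, 36.2 and 26.6 after PMA, against 0.311, 0.787 and 0.841 in untreated AsPC-1 and 2.69, 14.6 and 8.69 after PMA. It was lower in treated BxPC-3 and slightly above its near-zero level in treated AsPC-1, and the difference of responses was -2.79 ± 0.56 (limma, adjusted p = 0.0476), a call lost in 16 alternatives, among them leaving out any 1 array other than replicate 1 of treated AsPC-1. With the passage as a block SDC1 passed too, at -1.27 ± 0.22 (limma, adjusted p = 0.031), where 0.783% of all genes were called.

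Of the TIMP inhibitors, TIMP3 was higher in BxPC-3, TIMP2 and TIMP4 were lower, and TIMP1 was not called. TIMP3, the TIMP known to block ADAM17, read 1505, 1445 and 1456 in untreated BxPC-3 and 5.86, 11.3 and 3.31 in untreated AsPC-1. TIMP2 read 379, 458 and 467 against 3070, 3643 and 3315, and TIMP4 read 4.96, 11.8 and 5.54 against 119.5, 202 and 165. The lines did not overlap for any of these, with differences of 7.31 ± 0.31, -2.94 ± 0.17 and -4.01 ± 0.36 untreated (limma, adjusted p = 1.15e-09, 1.69e-08 and 1.46e-06). Of 5 inhibitor genes tested, 1 was higher and 2 were lower in BxPC-3, with and without PMA, where 32.4% and 33.5% of all genes were called untreated and treated. PMA changed 0 of the 5 past the test in either line, with 1 at an unadjusted p under 0.05 in each (limma). Over all genes PMA calls made up 5.82% in BxPC-3 and 1.96% in AsPC-1. With the passage as a block TIMP4 passed in BxPC-3, at -1.17 ± 0.32 (limma, adjusted p = 0.0399), where 10.2% of all genes were called. TIMP1 read 2809, 2204 and 1835 in untreated AsPC-1 and 8569, 2535 and 2911 after PMA, and its highest array was the replicate that stood apart.

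Of 18 genes that mature the sheddases or carry them to the surface, 0 passed in either PMA comparison (3 in BxPC-3 and 1 in AsPC-1 at an unadjusted p under 0.05, limma). Over all genes 5.82% were called in BxPC-3 and 1.96% in AsPC-1. With the passage as a block 1 passed in each line, where 10.2% and 5.62% of all genes were called in BxPC-3 and AsPC-1: PACS2 in BxPC-3 at 0.75 ± 0.17 (limma, adjusted p = 0.0197) and PLK2 in AsPC-1 at -1.03 ± 0.19 (limma, adjusted p = 0.0126). RHBDF2, which encodes a rhomboid pseudoprotease that escorts ADAM17, changed by 1.40 ± 0.64 in BxPC-3 (limma, adjusted p = 0.232). Untreated, 1 of the 18 was higher and 7 were lower in BxPC-3, and after PMA 4 were higher and 6 lower, with medians of -0.68 and -0.22, against 32.4% and 33.5% of all genes called and medians of -0.08 and 0.03. TSPAN5, a tetraspanin partner of ADAM10, was higher in BxPC-3 by 4.04 ± 0.33 (limma, adjusted p = 5.75e-07), at signals of 103, 123 and 158 against 4.46, 2.63 and 8.599. PCSK5, a proprotein convertase, was lower at a log2 difference of -2.22 ± 0.29, and TSPAN33, another ADAM10 partner, at -2.27 ± 0.38 (limma, adjusted p = 5.04e-05 and 0.000373). After PMA TSPAN14, from the same tetraspanin subgroup, was higher in BxPC-3 by 1.43 ± 0.23 (limma, adjusted p = 0.000328).

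Other ADAM and ADAMTS genes were tested in the same fit, where PMA calls covered 5.82% of all genes in BxPC-3 and 1.96% in AsPC-1. Of 6 other ADAM genes tested, 0 passed in BxPC-3 (0 at an unadjusted p under 0.05, limma) and 1, ADAM32, in AsPC-1. ADAM32 changed there by 1.91 ± 0.44 (limma, adjusted p = 0.0434) at low signals of 2.11, 1.01 and 3.40 untreated and 8.48, 24.4 and 19.1 treated, and it lost the call in 14 alternatives. Of 12 ADAMTS genes tested, 0 passed in either PMA comparison (1 in each at an unadjusted p under 0.05, limma). Untreated, 2 of 12 were higher in BxPC-3 and 0 lower, against 16.8% and 15.6% of all genes. These were ADAMTS12 and ADAMTS20, higher by 2.11 ± 0.56 and 1.66 ± 0.37 (limma, adjusted p = 0.0104 and 0.00323). The ADAMTS12 call was lost in 2 alternatives, among them leaving out untreated BxPC-3 replicate 2. After PMA 2 of 12 were higher and 0 lower, against 18.3% and 15.2% of all genes. They were ADAMTS12 at 2.45 ± 0.56 (limma, adjusted p = 0.00391) and ADAMTS18 at 1.32 ± 0.45 (limma, adjusted p = 0.0368). The ADAMTS18 call was lost in 7 alternatives, among them leaving out replicate 2 or 3 of treated AsPC-1 or any 1 array of treated BxPC-3. ADAMTS20 differed by -0.01 ± 0.37 after PMA.

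Of 8 genes of secreted proteins cut by ADAM12, ADAM28 or ADAMTS1, 2 were higher and 3 lower in BxPC-3 in both comparisons of the lines, against 32.4% and 33.5% of all genes called. IGFBP3, the insulin-like growth factor binding protein that ADAM12 and ADAM28 cut, read 6675, 6298 and 6326 in untreated AsPC-1 and 1.58, 10.5 and 7.33 in untreated BxPC-3. VCAN, the gene of versican and a substrate of ADAMTS1, read 6408, 4941 and 4960 against 22.1, 40.6 and 15.4. Both were higher in AsPC-1, while IGFBP5 was higher in BxPC-3, at 585, 474 and 736 there against 3.31, 7.56 and 0.698. The untreated differences were -9.54 ± 0.36, -7.63 ± 0.27 and 6.56 ± 0.46 (limma, adjusted p = 3.87e-10, 2.64e-10 and 1.49e-07). In either PMA comparison 0 of the 8 passed (2 in BxPC-3 and 0 in AsPC-1 at an unadjusted p under 0.05, limma). The share of all genes called was 5.82% in BxPC-3 and 1.96% in AsPC-1. With the passage as a block TFPI2, the gene of a protease inhibitor, passed in BxPC-3 at 1.53 ± 0.41 (limma, adjusted p = 0.0389). In that fit 10.2% of all genes were called in BxPC-3.

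Of 5 gamma-secretase genes tested, whose products cut the membrane stubs that shedding leaves, 0 passed in either PMA comparison (0 at an unadjusted p under 0.05, limma). Of all genes 5.82% were called in BxPC-3 and 1.96% in AsPC-1. Between the lines 1 of the 5 was called untreated and 2 after PMA, all lower in BxPC-3, against 32.4% and 33.5% of all genes called. APH1A was lower in BxPC-3 untreated, at a log2 difference of -0.79 ± 0.25, and after PMA, at -0.8 ± 0.25 (limma, adjusted p = 0.0249 and 0.0231). In the main fit PSEN2 was called lower after PMA only, at -1.22 ± 0.24 (limma, adjusted p = 0.00131). Its untreated difference gained a call in 9 alternatives. The difference between the lines' PSEN2 responses was -0.57 ± 0.34 (limma, adjusted p = 0.681). The untreated APH1A call was lost in 4 alternatives: at a 2-fold minimum, without untreated BxPC-3 replicate 2 or 3, and without untreated AsPC-1 replicate 1, where the difference became -0.47 (limma, adjusted p = 0.0812). The APH1A call after PMA was lost in 5 alternatives, at a 2-fold minimum and elsewhere at adjusted p (limma) of 0.0736 to 0.0912.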

How the data were processed

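Signals were measured in 12 samples of 2 cell lines. The authors deposited 1 table of linear signal intensity for 54675 probe sets, made with MAS5 per the submitters' processing notes, with no version stated in those notes. The platform annotation gave 41091 probe sets exactly 1 symbol, 1801 several and 11721 none, and 62 control probe sets were left out. Arrays have no read depth: their number sets the precision, and detection calls were not used here.

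The analysis used log2(signal + 3), and every fold change refers to it, so that changes of dim genes come out too small. Genes above the 40th percentile of an array (signals of 8.18 to 10.2) on at least 3 arrays were kept. A means model of the 4 groups was fitted with limma 3.58.1 (lmFit, eBayes with an intensity trend; R 4.3.3) over all 12 arrays, with 8 residual degrees of freedom, two-sided tests and Benjamini-Hochberg adjustment over 16099 genes. With 3 arrays against 3, an exact permutation test of a single gene cannot go below p = 0.1. The fit was tested on simulated data.

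Samples were grouped by the labels' line and treatment. The labels give same-numbered arrays of a line the same passage, which pairs them; as a check, deviations from the group means were correlated within pairs, with r of 0.411, 0.206 and 0.157 for the AsPC-1 pairs and of -0.0539, -0.126 and -0.0589 for the BxPC-3 pairs. Alternatives were the scaling, pseudocount, filter, probe set rule, trend, a 2-fold minimum, the passage block, the comparison's arrays alone and leaving out each array.

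The members and lists were chosen with earlier results of these data known. Named were the 9 members; from each list at most 4 called genes per comparison by absolute log2 change, or at most 2 with values where none passed; and the 3 genes most correlated with a member called in a PMA comparison, here used for ADAM17, which was not called. Figures were drawn with matplotlib.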

Additional observations from a re-analysis of the deposited data

Results flagged for a closer look

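The response of CXCL16 to PMA differed between the lines by 1.77 on the log2 scale (BxPC-3 minus AsPC-1; limma, adjusted p = 0.0342), by the test of the difference itself over 12 arrays. CXCL16 was higher in 3 of 3 treated BxPC-3 arrays than in any untreated one, and the AsPC-1 groups overlapped. The direction held in every alternative that gave a value, and the call was lost in 9 of them, at adjusted p of 0.0573 to 0.123.

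The response of DLL1 differed between the lines by -2.79 on the log2 scale (limma, adjusted p = 0.0476), by the same test. DLL1 was lower in 3 of 3 treated BxPC-3 arrays and read under 15 on every AsPC-1 array. The call was lost in 16 alternatives, at adjusted p of 0.0526 to 0.390, with the widest change of value (to -1.40) under the mean of all its probe sets.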

How the results depend on the processing

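Over 45 member values and 1061 alternatives, 981 kept direction and side of the threshold, 26 lost a call, 9 gained one, and 45 changed sign or rounded to 0. These 45 were all of values that had not been called. ADAMTS1 and ADAM19 kept their calls between the lines in all 24 alternatives. Member counts changed by over 1.5 times in few settings: after PMA the lines differed in 3 members at a 2-fold minimum (1 higher, 2 lower), AsPC-1 had 1 PMA call with the replicate block by passage, and BxPC-3 had 1 with its own arrays alone, each of them ADAM17. The block changed no other member call, and it added PMA calls among the list genes. Leaving out 1 array at a time gave 0 to 1 PMA calls in each line and 0 to 1 for the difference of responses, where 1 came without replicate 1 of treated AsPC-1, and 4 to 6 calls in both comparisons of the lines. In the same fits PMA calls covered 2.02% to 14.9% of all genes in BxPC-3 and 0.379% to 19.5% in AsPC-1. The share was 0.0559% to 4.43% for the difference of responses. Between the lines it was 25.6% to 40.6% untreated and 26.7% to 40.6% after PMA. ADAM9 after PMA lost its call in 14 of 24 alternatives, at a 2-fold minimum (adjusted p = 0.0398) and elsewhere at adjusted p of 0.0506 to 0.161, and ADAM28 after PMA lost it without replicate 1 of treated BxPC-3 (adjusted p = 0.0547). In AsPC-1 arrays alone, 0 of 16099 genes passed the PMA comparison. Centring arrays on their medians moved the centre of the log2 changes by -0.13 in BxPC-3 and -0.22 in AsPC-1 after PMA, by 0.04 and 0.13 between the lines untreated and treated, and by 0.09 for the difference. The list genes and EREG were put through the same alternatives after the data had been seen. A fit of the comparison's arrays alone was not run for the difference of responses, which uses all 12. ADAM12 was filtered out at the 60th percentile and under the mean of its probe sets. Signal near the floor limits what can be said of ADAM12 in both lines and of ADAMTS1 in AsPC-1.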
